A study of Mus musculus with 8 samples.

Results

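Endothelial cells line the vessels and chambers of the heart, and 10 genes that mark them were followed here across myocardial expression arrays: Pecam1, Cdh5, Emcn, Kdr, Flt1, Tek, Tie1, Eng, Vwf and Nos3. The genes were chosen by name, as established endothelial markers, and matched to the arrays through the RefSeq accession of each probe. All 10 were found among the 20659 gene symbols measured, on 12 of the 39429 probes, with 2 probes each for Kdr and Nos3. Myocardium labelled NPRA-/- for the natriuretic peptide receptor NPRA (product of Npr1) was compared with myocardium labelled NPRA+/+. There were 3 arrays of NPRA-/- and 5 of NPRA+/+ myocardium, each from untreated male mice. The design text speaks of an m6A array, whereas the series is typed as expression profiling and its total RNA was labelled in one colour, so the values are read here as transcript levels. The knockouts came from a conditional model with floxed alleles (NprAflox/flox), and the series title calls the deficiency cardiac-specific. The sources used here do not give the Cre driver, the controls' floxed or Cre alleles, the strain or the age.

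The vascular endothelium is held together by adherens junctions built on VE-cadherin, and it depends on a few receptor kinases that few other cells make. VEGF receptors set its growth and permeability, TIE receptors its quiescence, and the co-receptor endoglin its response to BMP9 and related ligands. Endothelial nitric oxide synthase, like NPRA, acts through the production of cGMP, although by way of soluble guanylyl cyclase, whereas NPRA is itself a guanylyl cyclase. In whole myocardium these transcripts come from a minority of cells mixed with cardiomyocytes, fibroblasts and mural cells, so fewer endothelial cells and less RNA per endothelial cell cannot be told apart.

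No endothelial marker passed the test between NPRA-/- and NPRA+/+ hearts. Of the 10 genes, 0 passed an adjusted p of 0.05 in limma's moderated test, 0 passed an unadjusted p of 0.05, and 0 had groups that did not overlap. Among all 35329 probes tested, 0.348% passed the adjusted threshold (0.32% higher and 0.0283% lower; 0 probes with the repetition number as a block), 19.7% passed the unadjusted one and 15.4% had groups that did not overlap. Among the 14132 probes in the 2 brightest quintiles of mean signal, which hold 9 of the 10 genes, the last 2 shares were 5.1% and 6.37%. Fitted changes ran from -0.19 to 0.35 on the log2 scale, and the widest of the 95% intervals reached folds of 0.603 and 1.67. Differences inside these intervals could not be told from none with 3 and 5 arrays.

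The arrays themselves bear on every value below. A level is the log2 processed signal minus the array's own 75th percentile, so 0 marks that percentile and 1 unit is a doubling; levels are compared between arrays for 1 probe, not between probes. Replicate 1 of each genotype stood apart from the other 6 arrays on the first principal component of all probes, which held 47.3% of the variance (-100.8 and -112.5 against -4.68 to 69.3 elsewhere). Those arrays were each scanned on a day of their own, NPRA+/+ replicates 4 and 5 on another day, and the remaining 4 arrays (NPRA-/- 2 and 3, NPRA+/+ 2 and 3) on a shared day, the only one with both genotypes. The labels used here name no slide, so arrays with the same scan time in their file headers were taken as 1 slide. None of the 6 slides so inferred held both genotypes. The 75th percentiles ran from 775.2 to 1252.7 signal units, 79.5% to 92.6% of probes were well above background, and no spot was saturated. The Npr1 probe, near the background, was at -6.42, -5.53 and -5.59 on the NPRA-/- arrays and -4.77, -6.14, -6.55, -6.0 and -5.94 on the NPRA+/+ arrays, a change of 0.03 ± 0.40 (SE; limma adjusted p = 0.978). It was well above background on 2 of 3 and 4 of 5 arrays and checks no label, since the deleted exons, and so its place beside them, are unknown here. The labels call the samples biological repetitions without tying them to animals, so each p-value reflects only how these samples vary, which may be technical.

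All 12 endothelial probes were well above background on all 8 arrays. So were all 10 cardiomyocyte markers, among them Myl3, a ventricular myosin light chain, and Ttn, titin. Of 29 further pan-endothelial genes that could be tested, 29 were well above background on all 8 arrays.

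RefSeq promoter sequence (GRCm38.p6, 250 bases before to 50 after the start) was at hand for 6 of the 10 genes, and 4 are shown because their levels are set side by side further on: Emcn and Eng, the pair with the highest Pearson r over the arrays, and the VEGF receptors Kdr and Flt1. None of these comparisons passed its adjusted test. Capitals mark GGAA, the core bound by ETS factors, and its reverse complement TTCC.
Emcn (chr3:137340828-137341127, plus strand): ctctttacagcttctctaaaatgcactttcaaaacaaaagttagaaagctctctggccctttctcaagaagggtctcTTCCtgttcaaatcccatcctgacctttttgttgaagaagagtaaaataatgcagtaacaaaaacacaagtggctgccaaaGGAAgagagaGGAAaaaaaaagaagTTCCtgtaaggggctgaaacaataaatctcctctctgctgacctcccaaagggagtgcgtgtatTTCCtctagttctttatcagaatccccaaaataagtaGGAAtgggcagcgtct
Eng (chr2:32646345-32646644, plus strand): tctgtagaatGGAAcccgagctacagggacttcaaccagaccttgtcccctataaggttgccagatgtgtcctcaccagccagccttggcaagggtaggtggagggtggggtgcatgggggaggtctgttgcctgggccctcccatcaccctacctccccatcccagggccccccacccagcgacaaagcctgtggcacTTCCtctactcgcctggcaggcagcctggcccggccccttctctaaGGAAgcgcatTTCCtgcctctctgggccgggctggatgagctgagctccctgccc
Kdr (chr5:75978406-75978705, minus strand): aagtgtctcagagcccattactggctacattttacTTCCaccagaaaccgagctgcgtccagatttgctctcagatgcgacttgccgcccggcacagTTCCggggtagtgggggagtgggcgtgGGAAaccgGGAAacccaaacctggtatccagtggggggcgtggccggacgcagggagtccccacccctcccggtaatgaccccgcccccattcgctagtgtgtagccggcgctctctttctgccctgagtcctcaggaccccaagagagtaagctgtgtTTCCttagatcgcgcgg
Flt1 (chr5:147725962-147726261, minus strand): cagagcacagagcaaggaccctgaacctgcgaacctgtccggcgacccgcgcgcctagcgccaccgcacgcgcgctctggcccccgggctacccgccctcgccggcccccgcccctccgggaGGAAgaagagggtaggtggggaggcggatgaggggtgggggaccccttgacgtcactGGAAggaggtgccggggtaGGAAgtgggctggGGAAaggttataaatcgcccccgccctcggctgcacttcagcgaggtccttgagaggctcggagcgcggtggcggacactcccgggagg
The 300 bases held 6 such cores for Emcn, 4 for Eng, 5 for Kdr and 4 for Flt1, counting both strands, and no core shared a base with another motif counted here. Tie1, a TIE-family receptor, held 9 and Tek held 2. Of 32851 mouse promoters of the same length, 95.98% held at least 1 core, the median was 3, 46.28% held 4 or more and 1.586% held 9 or more. The GC box GGGCGG occurred, on either strand, 2 times for Kdr and 3 times for Flt1 and in none of the other 4 genes, against 35.66% of all promoters with at least 1. A TATAAA box occurred in Flt1 alone of the 6, against 13.62% of all promoters. GC content ran from 41.0% for Emcn to 70.67% for Flt1, around a median of 52.67% for all promoters. These are matches of letters and were not tested for binding.

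**Figure D1:**
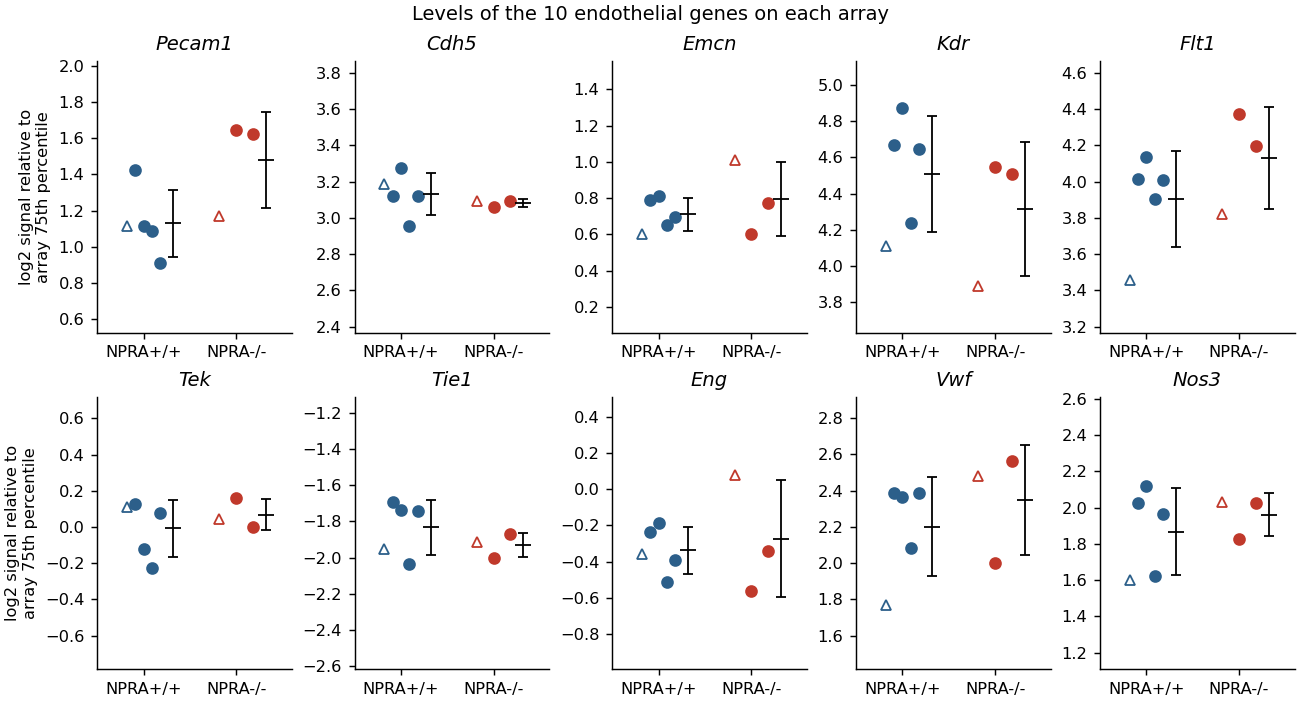
Level of each endothelial gene on each array, as log2 signal relative to the array's 75th percentile (vertical axis; the same span of 1.5 log2 units in every panel), for NPRA+/+ (blue) and NPRA-/- (red). Open triangles are replicate 1 of each genotype, the arrays that stand apart over all probes; bars give mean ± SD (n = 5 and n = 3). The groups overlap for all 10 genes, and Pecam1 is the gene whose group means lie farthest apart.

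The junction and surface glycoproteins come first. Pecam1 encodes CD31, an adhesion molecule of endothelial contacts that platelets and leukocytes also carry. Its level was 1.17, 1.64 and 1.62 on the NPRA-/- arrays and 1.12, 1.42, 1.11, 1.09 and 0.91 on the NPRA+/+ arrays. NPRA-/- replicates 2 and 3 were above every control, while replicate 1 lay within the control range. The knockout mean was 1.48 ± 0.27 (SD, n = 3) and the control mean 1.13 ± 0.18 (SD, n = 5). This gave a fitted change of 0.35 ± 0.17 (SE; 95% interval -0.04 to 0.74; limma adjusted p = 0.303), a fold of 1.27. It was the highest of the 10 and was positive under 24 of 24 alternative settings, from 0.06 to 0.50, none of them past the threshold. Settings of the filter, the variance model or the averaging of a gene's probes left this change at 0.35, so they could not turn its sign. Within the shared scan day it was 0.36 (adjusted p = 0.149 in limma), and without replicate 1 of each genotype 0.50 ± 0.16 (adjusted p = 0.0920 in limma).

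Cdh5 encodes VE-cadherin, the adherens junction protein found in endothelium. Its level was 3.09, 3.06 and 3.10 on the NPRA-/- arrays and 3.18, 3.12, 3.27, 2.96 and 3.12 on the NPRA+/+ arrays. Knockout arrays sat within 0.04 of each other, inside the control range. Knockout and control means were 3.08 ± 0.02 (SD, n = 3) and 3.13 ± 0.12 (SD, n = 5). With a fitted change of -0.05 ± 0.12 (SE; limma adjusted p = 0.868) and a 95% interval on the fold of 0.799 to 1.17, Cdh5 gave the tightest bound among the 10. Its sign was negative under all 24 alternatives, from -0.34 to -0.01. Settings of the filter, the variance model or probe averaging left the value at -0.05 and could not turn it.

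Emcn encodes endomucin, a sialoglycoprotein of capillary and venous endothelium. Its level was 1.01, 0.60 and 0.77 on the NPRA-/- arrays and 0.60, 0.79, 0.81, 0.65 and 0.70 on the NPRA+/+ arrays. The highest and one of the lowest values were both from knockout hearts. Fitted over all arrays the change was 0.09 ± 0.14 (SE; limma adjusted p = 0.780). Without NPRA-/- replicate 1 it was -0.02, and within the shared scan day -0.11 (adjusted p = 0.489 in limma).

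Levels of both VEGF receptors were lowest, within each genotype, on replicate 1. Kdr encodes VEGFR2, the main signalling receptor for VEGF-A, and its brighter probe stood at 3.89, 4.55 and 4.51 on the NPRA-/- arrays. On the NPRA+/+ arrays it was 4.11, 4.67, 4.87, 4.24 and 4.65. The groups overlapped, with the highest value in a control and the lowest in a knockout. The knockout mean was 4.32 ± 0.37 (SD, n = 3), the control mean was 4.51 ± 0.32 (SD, n = 5), and the fitted change was -0.19 ± 0.23 (SE; limma adjusted p = 0.704), with a fold interval of 0.603 to 1.27. Without NPRA-/- replicate 1 it was 0.02, and within the shared scan day -0.24 (adjusted p = 0.207 in limma).

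Flt1 encodes VEGFR1, which binds VEGF-A tightly and exists in a soluble decoy form that a single probe may not separate from the membrane form. Its level was 3.82, 4.37 and 4.20 on the NPRA-/- arrays and 3.46, 4.01, 4.14, 3.91 and 4.01 on the NPRA+/+ arrays. Here too replicate 1 was lowest in both genotypes, and the groups overlapped. The fitted change was 0.23 ± 0.20 (SE; 95% interval -0.23 to 0.68; limma adjusted p = 0.576), with 0.21 within the shared scan day (adjusted p = 0.259 in limma).

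The TIE receptors had narrow ranges over the 8 arrays, 0.39 log2 units for Tek and 0.34 for Tie1, against 0.98 for Kdr. Tek encodes TIE2, the angiopoietin receptor, and its level was 0.04, 0.16 and 0.00 on the NPRA-/- arrays and 0.11, 0.13, -0.12, -0.23 and 0.08 on the NPRA+/+ arrays. Knockout values lay within or just above the control range. The fitted change was 0.07 ± 0.14 (SE; limma adjusted p = 0.809). Tie1, an orphan partner of TIE2, was at -1.91, -2.0 and -1.87 on the NPRA-/- arrays and -1.95, -1.69, -1.73, -2.03 and -1.74 on the NPRA+/+ arrays. Every knockout value was below the control median but inside the control range. Its fitted change was -0.10 ± 0.13 (SE; limma adjusted p = 0.738), with -0.22 within the shared scan day (adjusted p = 0.192 in limma).

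Eng encodes endoglin, a co-receptor for BMP9 and BMP10. Its level was 0.08, -0.56 and -0.34 on the NPRA-/- arrays and -0.36, -0.24, -0.18, -0.51 and -0.39 on the NPRA+/+ arrays. The knockout arrays held both the highest and the lowest of the 8 values. Its change was 0.06 ± 0.17 (SE; limma adjusted p = 0.882), and its sign turned without NPRA-/- replicate 1 (-0.11) and within the shared scan day (-0.24; adjusted p = 0.223 in limma).

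The last of the markers are a secreted product and an enzyme. Vwf encodes von Willebrand factor, the platelet-tethering protein that endothelium stores in Weibel-Palade bodies and megakaryocytes also make. Its level was 2.48, 2.00 and 2.56 on the NPRA-/- arrays and 1.77, 2.39, 2.37, 2.09 and 2.39 on the NPRA+/+ arrays. The lowest value was NPRA+/+ replicate 1, and the groups overlapped widely. The fitted change was 0.15 ± 0.21 (SE; limma adjusted p = 0.741), against -0.10 within the shared scan day (adjusted p = 0.780 in limma). Nos3 encodes endothelial nitric oxide synthase, and its brighter probe was at 2.03, 1.82 and 2.03 on the NPRA-/- arrays and 1.6, 2.02, 2.12, 1.62 and 1.96 on the NPRA+/+ arrays. All knockout values fell inside the control range. The fitted change was 0.10 ± 0.17 (SE; limma adjusted p = 0.802), against -0.15 within the shared scan day (adjusted p = 0.418 in limma).

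**Figure D2:**
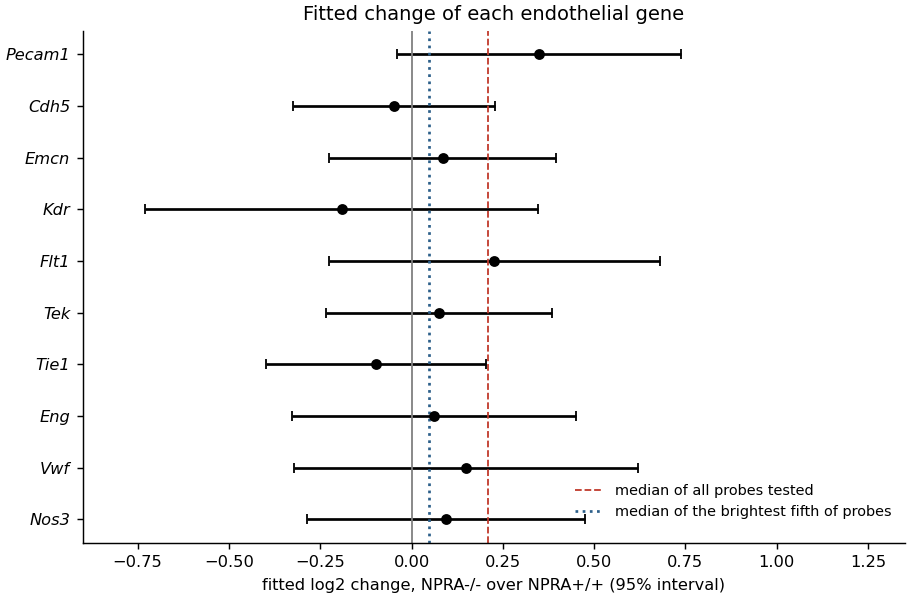
Fitted log2 change of each endothelial gene, NPRA-/- over NPRA+/+ (horizontal axis), with its 95% interval from limma (3 against 5 arrays). The dashed line is the median change of all probes tested, 0.21, and the dotted line that of the brightest quintile, 0.05; every interval includes 0.

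As a list, 7 of the 10 genes had a positive fitted change and 3 a negative one, with a median of 0.08. Over all probes tested 74.97% were positive and the median was 0.21, falling from 0.63 in the dimmest quintile to 0.05 in the brightest. Of the endothelial genes, 6 lay in the brightest quintile, 3 in the next and 1 in the middle one. Their median standard error of 0.17 compared with 0.22 over all probes tested. The signs moved with the scaling of the arrays: under scaling to each array's median, Emcn, Flt1, Tek, Eng, Vwf and Nos3 turned negative, the list's median was -0.21 and that of all probes -0.08. Within the shared scan day the list's median was -0.12, and without replicate 1 of each genotype it was -0.03, with 3 genes positive and 7 negative.

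**Figure D3:**
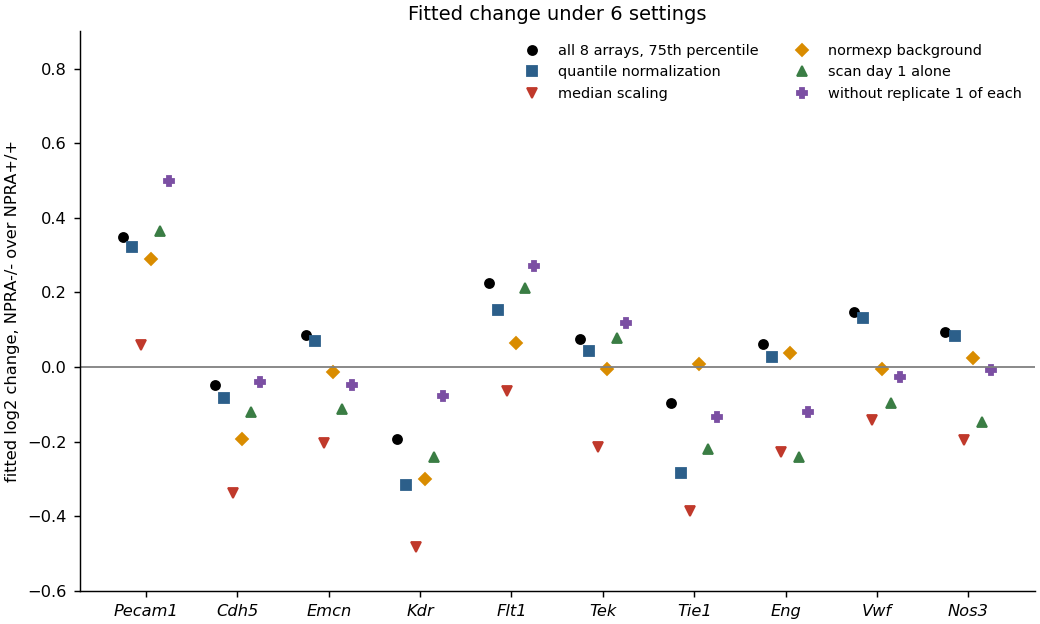
Fitted log2 change (vertical axis, NPRA-/- over NPRA+/+) of the 10 genes under 6 settings: all 8 arrays with the 75th percentile, the array median in place of that percentile, quantile normalization, normexp, the 4 arrays of the shared scan day, and the 6 arrays left without replicate 1 of each genotype. Pecam1 stays above 0, and Cdh5 and Kdr below 0, in all 6; Emcn, Flt1, Tek, Tie1, Eng, Vwf and Nos3 have points on both sides.

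A pair of genes had a second probe, which served as a check on the first. The dimmer Kdr probe stood at -0.65, -1.85 and -1.64 on the NPRA-/- arrays and -0.71, -1.79, -1.66, -1.97 and -1.79 on the NPRA+/+ arrays. Replicate 1 of each genotype was the highest in its group, where the brighter probe was lowest. The brighter probe exceeded the dimmer one by 4.54 and 4.83 on those arrays and by 6.15 to 6.53 on the other 6. Over all 8 arrays the probes ran opposite ways, with r = -0.73 (exact permutation p = 0.0455) and rho = -0.40 (exact permutation p = 0.327). Without the 2 arrays farthest from the median of the brighter probe, again replicate 1 of each genotype, r was 0.70 (exact permutation p = 0.107), so the negative relation rests on those arrays. The brighter Kdr probe was spotted 10 times on each array, with an SD between spots of 0.037 to 0.151 log2 units. Neither probe passed the test between genotypes: the dimmer one had a fitted change of 0.20 ± 0.36 (SE; limma adjusted p = 0.803). The mean level of the 10 cardiomyocyte markers was highest on the same arrays, 7.13 on NPRA-/- replicate 1 and 6.85 on NPRA+/+ replicate 1 against 5.13 to 6.05 elsewhere, and its part in the Kdr values was not tested.

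The second Nos3 probe tracked the first. It stood at -1.08, -1.6 and -1.22 on the NPRA-/- arrays and -1.48, -0.97, -0.85, -1.42 and -0.85 on the NPRA+/+ arrays. NPRA+/+ replicates 1 and 4 were low on both probes. Over the 8 arrays r was 0.78 (exact permutation p = 0.0279) and Spearman's rho 0.62 (exact permutation p = 0.115), with r = 0.77 after leaving out the 2 arrays farthest from the median. Its fitted change was -0.18 ± 0.21 (SE; limma adjusted p = 0.685), of opposite sign to the brighter probe, and every knockout value was below the control median.

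**Figure D4:**
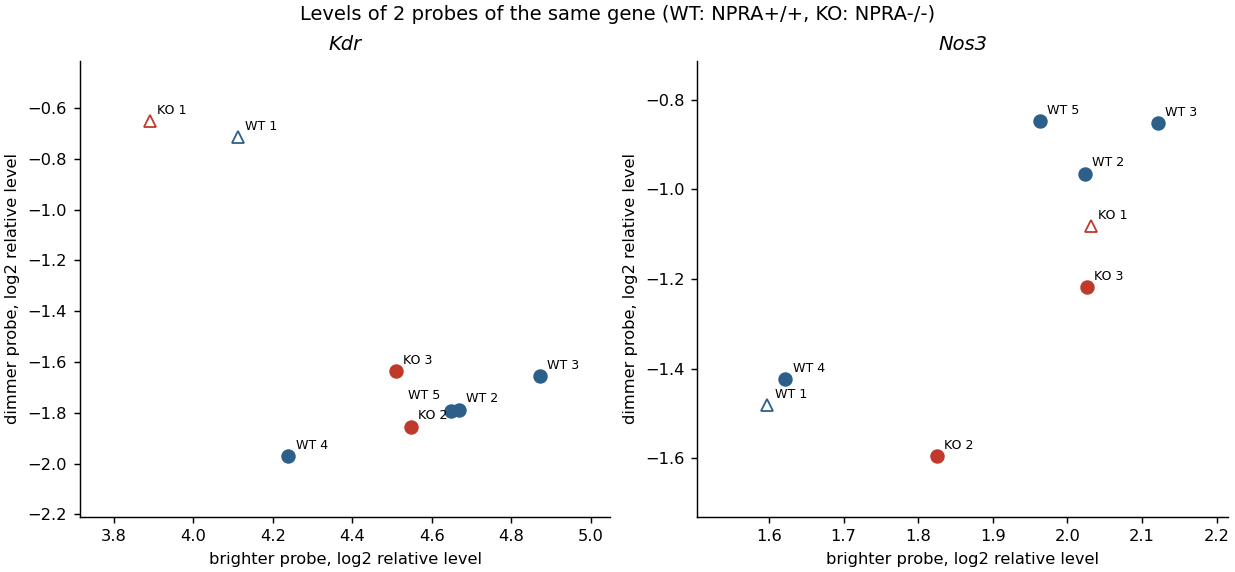
Levels of the dimmer probe (vertical axis) against the brighter probe (horizontal axis) of Kdr and of Nos3 on each array, both as log2 signal relative to the array's 75th percentile; red is NPRA-/-, blue NPRA+/+, and open triangles are replicate 1 of each genotype. For Kdr the triangles lie at the upper left, away from the other 6 arrays, and for Nos3 both probes rise together.

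Correlation among the genes was modest over all 8 arrays. Of the 45 pairs, 33 had a positive Pearson r, the median was 0.19 and the range -0.28 to 0.93. By exact permutation, 5 pairs had an unadjusted p under 0.05 and 0 passed after Benjamini-Hochberg adjustment over the 45, with Pearson's r or with Spearman's rho. All values on 1 array share its scaling, and the median r depended on it: under scaling to the array median it was 0.66. With genotype means removed it was 0.35. The shared scan day has 4 arrays, too few for a correlation.

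Emcn and Eng had the highest Pearson r of the pairs. Both were highest on NPRA-/- replicate 1, and the excess of Emcn over Eng stayed between 0.94 and 1.16 on every array. Their r was 0.93 (exact permutation p = 0.00179, adjusted 0.0804), rho was 0.86 (exact permutation p = 0.0107, adjusted 0.241), and r was 0.97 without the 2 arrays farthest from the median of Emcn, which are replicate 1 of each genotype. Vwf and Nos3 followed with r = 0.87 (exact permutation p = 0.00878, adjusted 0.198), rho = 0.69 (exact permutation p = 0.0694, adjusted 0.446) and r = 0.83 without the 2 farthest arrays. Emcn correlated with Vwf at 0.76 (exact permutation p = 0.0260, adjusted 0.390) and with Nos3 at 0.71 (exact permutation p = 0.0450, adjusted 0.405), where rho, at 0.93 (exact permutation p = 0.00223, adjusted 0.100), was the highest of the 45. Tie1 correlated with Nos3 at 0.74 (exact permutation p = 0.0392, adjusted 0.405).

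Across the genes, Nos3 had the highest median r with the other 9, 0.51, against a median of 0.14 with all other probes tested. Vwf had 0.42 against 0.13, Eng 0.39 against 0.10, Tie1 0.39 against -0.12 and Kdr 0.27 against -0.12. Cdh5 (0.19 against -0.05) and Emcn (0.19 against 0.14) were also above their own median with all probes. Tek (0.02 against 0.10), Pecam1 (0.10 against 0.24) and Flt1 (0.17 against 0.19) were below it. That median takes probes of any brightness, and the differences from it were not tested.

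Without replicate 1 of each genotype the genes fell into sets, picked out after their values were seen and given as a description. Emcn, Eng, Vwf, Nos3, Tie1, Cdh5 and Kdr correlated with each other at 0.44 to 0.97 over the 6 arrays (21 pairs, median 0.81), but at -0.28 to 0.93 over all 8 (median 0.49). Pecam1, Flt1 and Tek correlated with each other at 0.48 to 0.72 over the 6 arrays (3 pairs; 0.01 to 0.58 over all 8) and with the first set at -0.29 to 0.34 (-0.27 to 0.65 over all 8). Cdh5 and Kdr, at 0.40 over 8 arrays, reached 0.97 over the 6. Kdr and Flt1 went the other way, from 0.65 over 8 arrays, where both were low on replicate 1, to 0.27 over the 6. Over the 6 arrays 12 pairs had an unadjusted exact permutation p under 0.05 and 0 passed the adjustment over 45. Emcn and Eng had the smallest exact permutation p that 6 arrays can give, 0.00139 (adjusted 0.0625). A single pair could therefore not pass, however high its r.

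**Figure D5:**
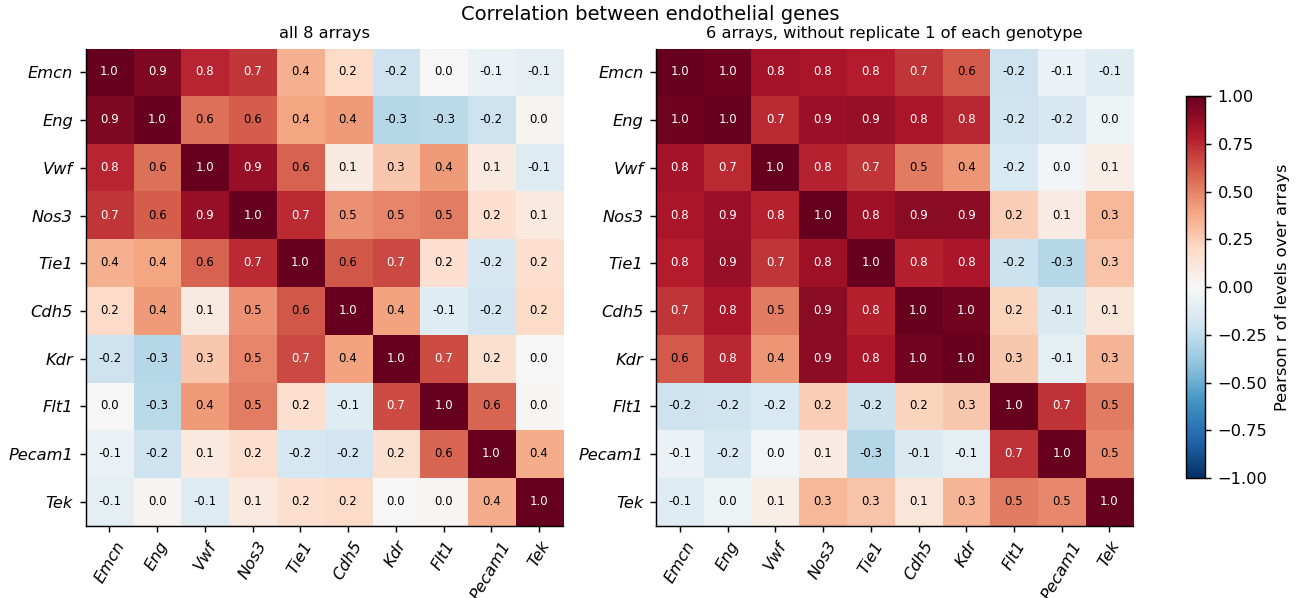
Pearson r between the levels of each pair of endothelial genes over all 8 arrays (left) and over the 6 arrays without replicate 1 of each genotype (right), from -1 (blue) to 1 (red). Emcn and Eng have the highest r in both panels, and on the right Flt1, Pecam1 and Tek stand apart from the other 7 genes.

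Differences between genes within an array cancel the array's scaling, and of the 45 pairs 2 had groups that did not overlap, no larger a share than the 6.54% of all pairs of probes in the 2 brightest quintiles. They are given as values. The Kdr level minus the Flt1 level was 0.07, 0.17 and 0.31 on the NPRA-/- arrays and 0.65, 0.66, 0.74, 0.33 and 0.64 on the NPRA+/+ arrays. Every knockout array was lower than every control, although NPRA-/- replicate 3 and NPRA+/+ replicate 4 differed by little. The knockout mean of 0.19 ± 0.12 (SD, n = 3) lay below the control mean of 0.60 ± 0.16 (SD, n = 5) (difference -0.42). On the shared scan day alone the order was the same. Its two-sided exact permutation p of 0.0357 is the smallest that 3 against 5 arrays can give, and after adjustment over the 45 pairs it was 0.723. The separation rests on the brighter Kdr probe: with the dimmer one, the difference was -4.47, -6.23 and -5.83 on the NPRA-/- arrays and -4.17, -5.80, -5.79, -5.88 and -5.80 on the NPRA+/+ arrays. Those groups overlapped, and their means differed by -0.02.

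The Pecam1 level minus the Kdr level was the other such pair. It was -2.72, -2.91 and -2.89 on the NPRA-/- arrays and -3.00, -3.25, -3.76, -3.15 and -3.74 on the NPRA+/+ arrays. Here the knockouts were higher than every control, by a mean of 0.54, with the same exact permutation p of 0.0357, adjusted 0.723. Both pairs share Kdr, so they are not separate results. Neither passed the adjustment, which so few pairs at the smallest possible p cannot do. With the dimmer Kdr probe the groups of this difference overlapped too, with means of 2.86 ± 0.90 (SD, n = 3) and 2.71 ± 0.54 (SD, n = 5).

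Other endothelial genes, from lists of 6 vessel types, were read beside the 10 markers. Of 82 tested in all, 0 were called higher and 0 lower, 5 were higher and 1 lower at an unadjusted p of 0.05 (7.32%, against 19.7% of all probes and 5.1% of those in the 2 brightest quintiles), and the median change was 0.06. Groups did not overlap for 6 of the 82 (7.32%), against 15.4% of all probes and 6.37% of those in the 2 brightest quintiles. Of 29 further pan-endothelial genes, 17 had positive changes, with a median of 0.03. Those of smallest p were Cd34, a sialomucin of endothelial and progenitor cells (0.32 ± 0.13, SE; limma adjusted p = 0.226; dimmer probe 0.21 ± 0.24), and Egfl7, a secreted endothelial factor (0.26 ± 0.13; adjusted p = 0.315). Among 17 capillary genes the median was 0.05, led by the fatty acid carrier Fabp4 (0.61 ± 0.33, SE; limma adjusted p = 0.352) and the transcription factor Tcf15 (0.50 ± 0.32; adjusted p = 0.432).

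Among 14 arterial genes the median was -0.03 and Notch1, a receptor of arterial specification that many cells express, came nearest to the threshold of any endothelial gene examined. Its level was 3.93, 4.96 and 4.73 on the NPRA-/- arrays and 5.82, 5.61, 5.69, 5.58 and 5.50 on the NPRA+/+ arrays. All 3 knockout values were below all 5 controls, with NPRA-/- replicate 1 lowest. Groups did not overlap, in either direction, for 6.37% of probes in the 2 brightest quintiles. Fitted as a difference this was -1.10 ± 0.23 (SE; limma adjusted p = 0.0749), and a much dimmer second probe gave -0.80 ± 0.53 (adjusted p = 0.452 in limma). Bmx, an arterial kinase, was at 0.36 ± 0.16 (SE; limma adjusted p = 0.258), with a dimmer probe at 0.96 ± 0.61 (adjusted p = 0.429).

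All 9 venous genes had positive changes (median 0.14), where 74.97% of all probes did. Of the 9, 7 were well above background on all 8 arrays. Ephb4, the venous ephrin receptor, stood at 0.69, 0.17 and 0.08 on the NPRA-/- arrays and -0.03, -0.23, -0.31, -0.28 and -0.52 on the NPRA+/+ arrays. Its groups did not overlap, as for 15.4% of all probes and 6.37% of those in the 2 brightest quintiles. Both of its probes gave a fitted difference of 0.59, with limma adjusted p = 0.136 and 0.130. Selp, P-selectin of Weibel-Palade bodies and platelets, was at 0.56 ± 0.19 (SE; limma adjusted p = 0.156), with overlapping groups. Neither passed the test.

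Lymphatic and endocardial genes were few. Probes in the same signal quintiles had a median change of 0.22 for the lymphatic and 0.05 for the endocardial list. Of 6 lymphatic genes the median was 0.24, with Prox1, the lymphatic fate factor, at 0.31 ± 0.17 (SE; limma adjusted p = 0.344) and podoplanin, Pdpn, at 0.28 ± 0.20 (adjusted p = 0.485); a dimmer Pdpn probe pointed the other way at -1.29 ± 0.59 (adjusted p = 0.272). Of 7 endocardial genes all 7 were positive (median 0.38), with Hapln1, a hyaluronan link protein, at 1.29 ± 0.49 (SE; limma adjusted p = 0.200) and Smoc1, a matrix protein, at 0.39 ± 0.16 (adjusted p = 0.224). The Hapln1 probe was well above background on 6 of 8 arrays. Positive changes made up 74.97% of all probes tested.

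Partners of the 10 markers were read from 6 pathway lists. Of 72 genes tested, 0 were called higher and 0 lower; 9 were higher and 0 lower at an unadjusted p of 0.05 (12.5%, against 19.7% of all probes and 5.1% of those in the 2 brightest quintiles). Of the 72, 53 were positive, where 74.97% of all probes were, and the median change was 0.13, against 0.21 for all probes. Groups did not overlap for 6 of the 72 (8.33%), against 15.4% of all probes and 6.37% of those in the 2 brightest quintiles. In the VEGF pathway 11 of 12 were positive (median 0.18), with Plcg1, the phospholipase downstream of VEGFR2, at 0.44 ± 0.15 (SE; limma adjusted p = 0.162; dimmer probe 0.59 ± 0.22) and the VEGFR1 ligand Pgf at 0.33 ± 0.17 (adjusted p = 0.323). In the angiopoietin pathway 5 of 8 were positive (median 0.10), with Angpt4, a TIE2 ligand seen well above background on 7 arrays, at 1.41 ± 0.43 (SE; limma adjusted p = 0.134) and the matrix protein Svep1 at 0.29 ± 0.16 (adjusted p = 0.355).

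Around endoglin, 15 of 18 genes of the BMP9 pathway were positive (median 0.12). Acvrl1, the type I receptor ALK1 that works with endoglin, stood at 0.72, 0.37 and 0.43 on the NPRA-/- arrays and 0.31, 0.01, -0.01, 0.12 and -0.02 on the NPRA+/+ arrays. Every knockout value exceeded every control, by a fitted 0.42 ± 0.14 (SE; limma adjusted p = 0.161). Groups did not overlap for 15.4% of all probes and 6.37% of those in the 2 brightest quintiles. Gdf2, BMP9 itself, was well above background on 4 arrays and its fitted change was 1.41 ± 0.54 (SE; limma adjusted p = 0.201).

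Around Nos3, 11 of 16 nitric oxide pathway genes were positive (median 0.11). The smallest p belonged to Hsp90aa1, a chaperone of the enzyme (0.44 ± 0.23, SE; limma adjusted p = 0.341), and to Nos1, the neuronal synthase (0.75 ± 0.41; adjusted p = 0.347; well above background on 5 arrays). Of 9 partners of VE-cadherin at the junction the median was 0.05, with plakoglobin, Jup, at 0.51 ± 0.17 (SE; limma adjusted p = 0.151) and the junctional adhesion molecule F11r at 0.24 ± 0.12 (adjusted p = 0.310). Of 10 partners of von Willebrand factor, 6 were positive (median 0.25, against 0.22 for probes in the same signal quintiles). Selp was as above and thrombomodulin, Thbd, at 0.37 ± 0.15 (SE; limma adjusted p = 0.223).

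Markers of other cells in the myocardium were read alongside, and their part in the endothelial values was not tested. The 10 cardiomyocyte markers had a median change of 0.63, all positive, with 0 at an unadjusted p of 0.05. Their mean level per array was 5.98 to 7.13 on knockout arrays and 5.13 to 6.85 on controls. Of 9 pericyte markers, whose cells wrap capillaries, the median was -0.02, and the brighter Mcam probe was at -0.29 ± 0.13 (SE; limma adjusted p = 0.270), the dimmer at 0.30 ± 0.22 (adjusted p = 0.497), and Vtn at -0.26 ± 0.15 (adjusted p = 0.398). The 6 smooth muscle markers had a median of 0.24, with Lmod1 at 0.67 ± 0.16 (SE; limma adjusted p = 0.0873) and Myh11 at 0.74 ± 0.19 (adjusted p = 0.0946). The 8 megakaryocyte and platelet markers, whose cells share Pecam1, Vwf and Selp with endothelium, had a median of 0.45, with a mean level per array of -2.21 to -2.09 on knockout arrays and -2.67 to -2.43 on controls. Probes in the same signal quintiles had a median change of 0.40 for this list, so its median lay near that of probes of like brightness. For the cardiomyocyte, pericyte and smooth muscle lists that value was 0.05. Of the 8, 6 were positive, and the changes ran from -0.22 to 1.05. Gp1ba, the platelet receptor for von Willebrand factor, was at 1.05 ± 0.21 (SE; limma adjusted p = 0.0702) and Treml1 at 0.63 ± 0.19 (adjusted p = 0.129). Both lie in the second dimmest quintile, where the median change was 0.40. The Gp9 probe was not well above background on some arrays.

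Among the remaining lists, 1 gene passed the test: Msln, a mesothelial marker, at 2.48 ± 0.36 (SE, limma adjusted p = 0.0498). The mean log2 level of its list of 7, per array, was -3.74 to -2.87 on knockout arrays and -5.39 to -4.72 on controls. The Msln call was not made in the 17 of 24 alternative settings that called 0 probes. Among them was the block by repetition number, which leaves out NPRA+/+ replicates 4 and 5. The median change of the 7 mesothelial genes was 2.06, against 0.63 for probes in the same signal quintiles. The second mesothelial gene, Krt19, was at 2.06 ± 0.39 (SE; limma adjusted p = 0.0662) but was well above background on 5 of 8 arrays, and 4 of the 7 mesothelial probes were below that mark on some array. Medians of the other lists were 0.27 for fibroblast, 0.16 for macrophage, 0.28 for lymphocyte, 0.45 for neutrophil, 0.10 for erythroid, 0.25 for adipocyte and 0.29 for Schwann cell markers, with 0 genes called in any of them. Probes in the same signal quintiles had medians of 0.05 for the fibroblast, macrophage and erythroid lists. Those medians were 0.22 for the lymphocyte, adipocyte and Schwann cell lists and 0.31 for the neutrophil list. In the neutrophil list the 6 genes tested changed by 0.13 to 1.05. S100a9 was at 1.04 ± 0.20 (SE; limma adjusted p = 0.0693) and S100a8 at 1.05 ± 0.26 (adjusted p = 0.0936), both with groups that did not overlap, as for 15.4% of all probes. Among lymphocyte genes Cd8a was at 0.57 ± 0.15 (SE; limma adjusted p = 0.103; dimmer probe 0.92 ± 0.15, adjusted p = 0.0522) and Cd79a at 0.43 ± 0.13 (adjusted p = 0.131). Other genes named by the same rule were the fibroblast genes Dcn and Col1a1, the macrophage genes Fcgr1 and Csf1r, the erythroid Hba-a2, the adipocyte Plin1 and Retn, and the Schwann cell gene Sox10. Their fitted changes ran from 0.25 to 0.56, with limma adjusted p from 0.197 to 0.781. Dimmer Csf1r probes were at -0.05 ± 0.25 and 0.35 ± 0.14 (SE; limma adjusted p = 0.939 and 0.232). Some unnamed genes of these lists were lower: 7 of 10 fibroblast, 7 of 8 macrophage and 4 of 7 erythroid genes were positive. The lowest changes in those lists were -0.23, -0.22 and -0.36.

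For likeness, each gene's levels were set to mean 0 and SD 1 over the arrays and averaged over the 10. This mean was 0.24, -0.10 and 0.38 on the NPRA-/- arrays and -0.72, 0.55, 0.57, -1.01 and 0.09 on the NPRA+/+ arrays. Controls held both the highest and the lowest values, with NPRA+/+ replicates 1 and 4 low. Of 10751 other genes brighter than the median probe, those with the most similar levels over the 8 arrays were Coq8b, a kinase-like protein of coenzyme Q synthesis (r = 0.936), the transcription factor Gata6 (r = 0.934), Htatip2 (r = 0.931), the actin-binding coronin Coro1c (r = 0.930) and the paraoxonase Pon2 (r = 0.928). Over these candidates the median r was 0.19, and 0.326% exceeded 0.9.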

How the data were processed

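Total RNA of 8 myocardial samples was labelled with Cy3 and hybridised to one-colour Agilent arrays, 1 per sample, per the labels' protocols. Spots were read with Agilent Feature Extraction 11.0.1.1, per the submitters' processing notes. The deposited scanner files hold processed signal intensity per spot, with background handling as that software made it per the file headers. The deposited series table holds log2 values that the authors normalised, by a method not given in the sources used here; it served as an alternative. Saturation and background flags came from the same files.

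From these, spots of a probe were averaged (control spots and flagged outliers left out) and log2 processed signal was taken relative to each array's 75th percentile. RefSeq accessions gave 1 symbol to 27234 probes and none to 12195. Probes well above background on at least 3 of 8 arrays were tested (35329; 4100 were not) with limma 3.58.1 in R 4.3.3, genotype as the sole term, by two-sided tests whose p-values were adjusted (Benjamini-Hochberg) over every one of them, at a threshold of 0.05. The probe with the highest mean stands for a gene; second probes of the 10 markers are given, and those of other genes where a value is discussed. The number of arrays limits the precision. In simulated data of 35329 probes, the fit called 36% of genes changed by 1 log2 unit and 82% of those changed by 2. Of its 160 calls, 10 were false. Those probes were drawn independently and the changed ones had any brightness, so the shares do not describe the endothelial genes.

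Named genes are the 10 markers, in each further list those past the threshold and otherwise the 2 of smallest p, the 5 most alike in level, and Npr1; second probes, and Ttn and Myl3 as tissue markers, follow the same lists. Some genes that this rule picks are not reported here. The members and the lists were chosen with earlier results of these data known. Samples sharing a repetition number deviated together (r = 0.63, 0.28 and 0.36 for numbers 1 to 3), although some unequal numbers reached 0.33 and no label says what a number marks; no endothelial call changed with that number as a block. Source names number the controls differently, with 3 of them sharing number 1, so that numbering was tried as well. Alternatives covered scaling, background correction, the filter on dim probes, slide, scan day, both numberings, the variance model, the probe rule and leaving out each array; leaving out replicate 1 of both genotypes together, and the dimmer Kdr probe in the differences between genes, were added after seeing the data.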

Additional observations from a re-analysis of the deposited data

How the results depend on the processing

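None of the 10 endothelial genes was called in the main fit or in any of 24 alternatives, also with either replicate block. In 17 of the 24 no probe of any kind was called, so those settings could give no endothelial call. What moved was the count over all probes. The 123 probes called became 0 under quantile normalization, median scaling, the 75th percentile of bright probes, normexp, the deposited table, slide or scan day as a block, replicate block by repetition number, the average of arrays sharing a source name number, and eBayes with trend and robust. They became 3 with probes above background on all arrays, 193 with no filter, 22 under the replicate block by source name number, and 5979 on scan day 1 alone, where 2 arrays face 2. Leaving out 1 array gave 0 to 4088, the highest without NPRA+/+ replicate 1, and leaving out both arrays that stand apart gave 4134; the cause was not tested. The median change of the endothelial genes, 0.08, was -0.21 under median scaling and -0.12 both with scan day as a block and on scan day 1 alone, 0.03 to 0.13 when leaving out 1 array, -0.03 without the 2 arrays that stand apart, 0.0018 under normexp, 0.037 under the replicate block by repetition number and 0.16 with slide as a block. The median correlation of the 45 pairs, 0.19, was 0.66 under median scaling, 0.41 under normexp, 0.35 with genotype means removed, 0.48 without the 2 arrays that stand apart, and 0.11 to 0.47 when leaving out 1 array. Signs turned for 8 of the 10 genes, Flt1 and Kdr among them, whose changes were the farthest from 0 after Pecam1. Under median scaling Emcn was -0.20, Flt1 -0.064, Tek -0.22, Eng -0.23, Vwf -0.14 and Nos3 -0.195. Under normexp Emcn was -0.012, Tek -0.0044, Tie1 0.0074 and Vwf -0.0039. With scan day as a block, and on scan day 1 alone, Emcn was -0.11, Eng -0.24, Vwf -0.10 and Nos3 -0.15. With the replicate block by repetition number Eng was -0.015. Averaging both probes, Kdr was 0.0061 and Nos3 -0.045. Leaving out 1 array at a time, Emcn ran from -0.022 to 0.18, Kdr from -0.31 to 0.021 and Eng from -0.11 to 0.20, each turning sign without NPRA-/- replicate 1. Without both arrays that stand apart, Emcn was -0.049, Eng -0.12, Vwf -0.026 and Nos3 -0.0069. The remaining changes, all those of Pecam1 and Cdh5 among them, kept their sign. Settings of the filter and the variance model cannot alter a fitted change. Scan day as a block repeats the changes of scan day 1 alone.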
